A study of Mus musculus with 18 samples.

Results

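The comparison set the dentate gyrus of mice at E1 against E0 where both groups carried a short hairpin RNA named for c-Fos (shRNA-cFos). It covers the genes with a mean normalized count of 50 or more over the libraries of the comparison, 12409 of the 24015 genes in the authors' deposited table, and 12408 of these have an adjusted p. The gene without one, Ecel1, was not counted as tested. RNA came from microdissected dentate gyrus of C57BL/6 mice aged 8 weeks, with 3 libraries at E0 and 3 at E1 out of 18 in the series, and per the labels' protocols each library was made from an individual animal. The labels give the time or state only as E0 and E1, and the comparison is named E1 against sham; the sources used here do not name the stimulus, the delivery of the hairpin or the cells that took it up. Both groups carry the same hairpin, so what the hairpin itself does to Fos cannot be read from this comparison. The table holds no values per library, so each result below is a log2 fold change (E1 over E0) with the authors' standard error, given as ±, and genes were called higher or lower at the authors' adjusted p under 0.05.

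Granule neurons, the principal cells of the dentate gyrus, receive input from the entorhinal cortex and send mossy fibres to CA3. When neurons fire, calcium entry activates kinases that act on transcription factors already present, such as CREB and SRF, and these switch on immediate early genes. Some of those genes encode transcription factors, among them the AP-1 subunits of the Fos and Jun families, and others encode proteins that act at synapses or restrain the signal. Short hairpin RNAs lower a transcript by RNA interference.

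In all, 2314 genes were higher (18.6% of those tested) and 1564 were lower (12.6%), and 8530 did not pass; the median log2 fold change over all tested genes was 0.01. By the authors' fold changes, which are shrunken toward 0, the increases were the larger changes. On that scale 167 genes rose at least 2-fold and 47 at least 4-fold, while 22 fell at least 2-fold and 0 at least 4-fold. Removing the shrinkage gives larger changes, as for Dclk3, estimated at 445 normalized counts at E0 and 104 at E1. The median standard error was 0.11. The share of genes called higher grew with the mean count, from 3.74% of genes between 50 and 100 to 48.1% of genes at 2500 or more, and the share called lower went from 13.6% to 3.08%. The median log2 fold change moved with it, from -0.12 in the lowest of these classes to 0.18 in the highest. In 5 equal classes of genomic span, over the 95.8% of genes matched by symbol, the longest class had 26.9% higher and 5.13% lower, against 15.5% and 15.6% in the shortest. When each fold change was centred on the median of genes with a like mean count, in 20 classes, 1888 genes were higher and 1643 lower, so the higher share of all calls went from 59.7% to 53.5%. Of the 2314 higher genes, 1648 were called higher again with centring, and of the 1564 lower genes, 1203 were called lower again. No call changed direction. Lists of abundant genes are therefore given below with the centred count wherever it differs by over 1.5 times and at least 5 genes, and whether the trend with mean count came from normalization, library composition or the tissue was not tested. Every list count below is to be read beside the 18.6% higher and 12.6% lower of all tested genes. With centring, the longest class of genomic span still had 21.9% higher and 6.52% lower, against 13.9% and 14.5% in the shortest. No list count was adjusted for span, and the cause of that trend was not tested.

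**Figure D1:**
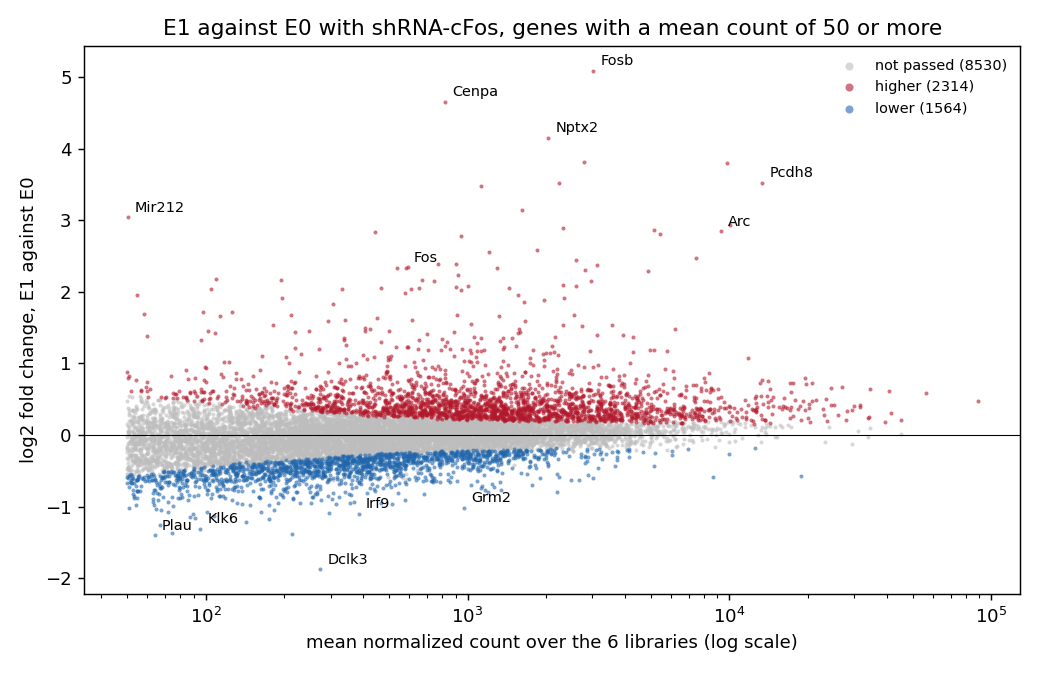
Log2 fold change of E1 against E0 with shRNA-cFos (vertical axis) against the mean normalized count over the 6 libraries (horizontal axis, log scale), 1 point per gene with a mean of 50 or more. Red points are the 2314 higher genes, blue the 1564 lower genes and grey the 8530 that did not pass; the largest changes are increases, led by Fosb at 5.09.

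**Figure D2:**
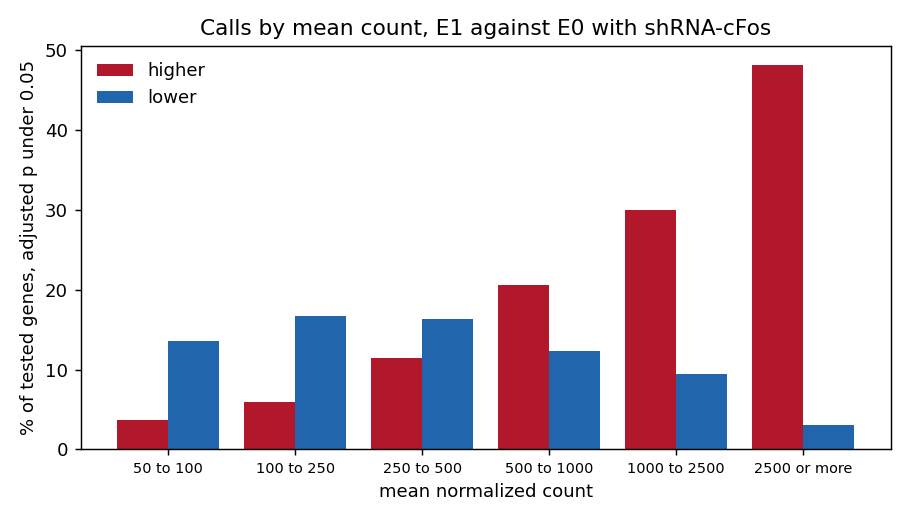
Percentage of tested genes called higher (red) or lower (blue) at an adjusted p under 0.05 in 6 classes of mean normalized count. The higher share grows from 3.74% to 48.1% across the classes while the lower share is largest, 16.7%, at 100 to 250.

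Fos itself, whose product pairs with Jun proteins to form AP-1, stood at 2.33 ± 0.15 (log2, adjusted p = 2.24e-54) in the authors' deposited table. From its mean count and fold change, its level was estimated at 170.4 normalized counts at E0 and 999 at E1; such estimates use the fold change with the authors' shrinkage removed and carry no error. Fosb stood highest of all genes with 5.09 ± 0.11 in the authors' deposited table, from an estimated 147 to 5889. Other AP-1 subunits rose by less in the authors' deposited table: Fosl2 by 2.81 ± 0.07, Junb by 2.37 ± 0.12, Jun by 1.18 ± 0.08 and Jund by 1.01 ± 0.08. The small Maf proteins that can partner them gave 1.67 ± 0.20 for Maff and 0.66 ± 0.15 for Mafk in the authors' deposited table, and the repressor gene Nfil3, which binds D-box sites, gave 2.04 ± 0.11. Among CREB and ATF relatives Crem rose (0.54 ± 0.14) and Atf5 (-0.55 ± 0.15) and Creb3 (-0.51 ± 0.12) fell in the authors' deposited table, while Creb1 (0.15 ± 0.11), Atf2 (0.13 ± 0.10) and Atf4 (0.11 ± 0.08) did not pass. Of the 26 tested AP-1, CREB and ATF genes, 12 were higher and 2 lower, beside 18.6% higher and 12.6% lower of all genes.

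The other largest increases include genes with very different jobs. Cenpa, the histone H3 variant that marks centromeres, gave 4.66 ± 0.14 in the authors' deposited table, from an estimated 48.5 to 1593 normalized counts. Its neighbours on the chromosome did not share that size of change: Dpysl5, 36.7 kb away, gave 1.32 ± 0.13 and Slc35f6, 7.05 kb away on the other side, gave 0.11 ± 0.10 in the authors' deposited table. Distances are from the GENCODE M21 annotation (GRCm38), in which no gene overlaps Cenpa. Sertad1, a transcriptional coregulator, gave 2.84 ± 0.13 in the authors' deposited table, and Arl4d, a small GTPase of the ADP-ribosylation factor family, gave 3.48 ± 0.11. Pcdh8, a protocadherin that promotes removal of N-cadherin from synapses, went from an estimated 2033 to 24594 normalized counts (3.53 ± 0.07 in the authors' deposited table). Synpo, the synaptopodin gene of the spine apparatus, gave 2.93 ± 0.10, and Kcnj2, an inward rectifier potassium channel, gave 2.78 ± 0.14 in the authors' deposited table. Nptx2, a secreted pentraxin that gathers AMPA receptors, went from an estimated 187 to 3879, with 4.15 ± 0.12 in the authors' deposited table.

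Some of the best known activity genes rose with wide errors in the authors' deposited table: Arc at 2.85 ± 0.26, Nr4a1 at 2.59 ± 0.23 and Npas4 at 1.45 ± 0.25. Homer1 had a shrunken log2 fold change like that of Arc with a narrower error, 2.86 ± 0.12, in the authors' deposited table. Arc, which takes AMPA receptors into the cell, was estimated at 760.2 normalized counts at E0 and 17736 at E1, and Homer1 at 1135 and 9160. With the shrinkage removed Arc thus rose by more than Homer1, although their shrunken values are alike. The order of the largest changes given here is that of the shrunken values. Which library or libraries gave the wide errors of Arc, Nr4a1 and Npas4 cannot be seen in the files used here. The list of activity-induced effectors, to which Arc and Homer1 belong, held 25 higher and 0 lower of 30 (median 1.47).

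**Figure D3:**
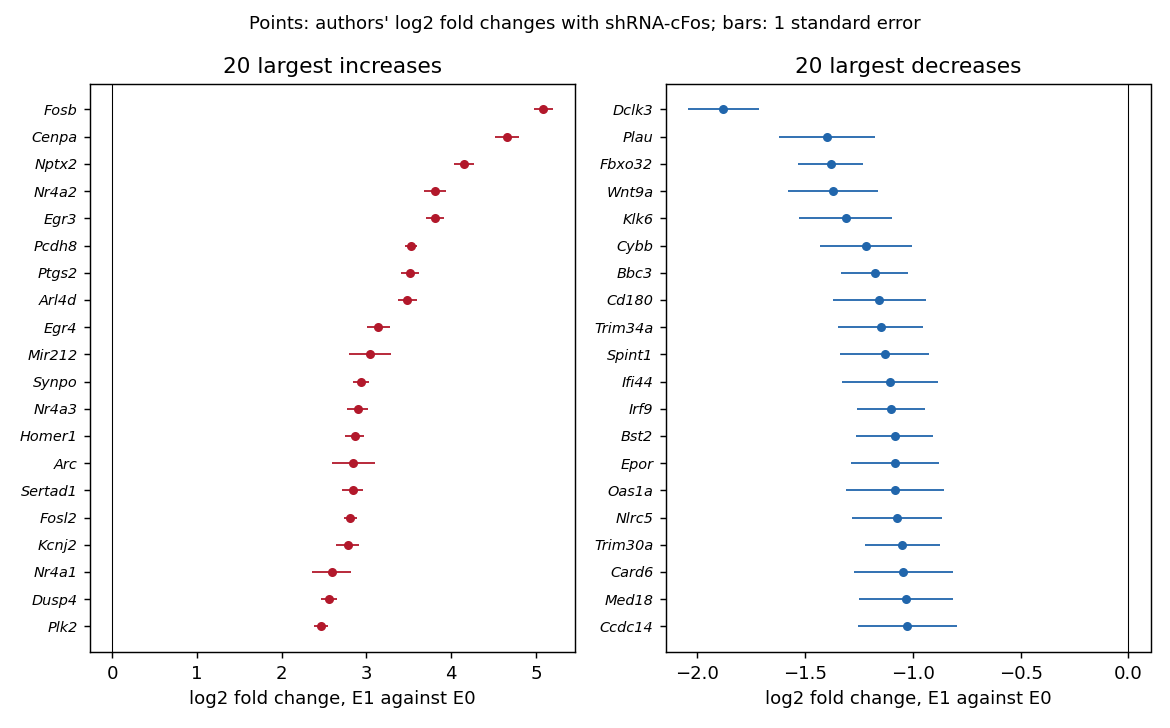
The 20 genes with the largest increases (left, red) and the 20 with the largest decreases (right, blue) among genes with a mean count of 50 or more, passing over model names. Points are the authors' log2 fold changes and bars 1 standard error; the increases run from 5.09 for Fosb to 2.47 for Plk2 and the decreases from -1.88 for Dclk3 to -1.02 for Ccdc14.

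One of the 20 largest increases was a microRNA row. Mir212 gave 3.04 ± 0.25 in the authors' deposited table, with a mean of 50.4 that it reached through E1 alone, since the estimated levels were 3.95 at E0 and 96.8 at E1. Mir132, which lies beside it on the same strand of chromosome 11, gave 2.70 ± 0.26 at a mean of 38.4 in the authors' deposited table, so it falls outside the genes described. The Mir212 precursor lies within the non-coding gene 1700016P03Rik on the same strand. RNA-seq reads over these rows come from the primary transcript or its precursors and do not measure the mature microRNA. The sequences are shown because both microRNAs carry the same seed, the bases that pair with targets, printed in capitals (bases 2 to 8, RefSeq, build GRCm38.p6):
mmu-miR-212-3p: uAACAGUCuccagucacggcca
mmu-miR-132-3p: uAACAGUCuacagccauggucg
The seed AACAGUC occurs in these 2 of the 1738 mature mouse microRNAs of the RefSeq table (0.115%). The mature sequences lie at chr11:75173443-75173464 and chr11:75173723-75173744 on the plus strand. The 2 other microRNA rows with a mean of 50 or more were the host transcript Mir22hg, at 1.48 ± 0.12, and Mir3064, at 0.24 ± 0.19 and not passed, in the authors' deposited table. At the edge of the mean count rule, Olfm4 (mean 50.04, -0.03 ± 0.23) was just inside in the authors' deposited table and Zfp959 (mean 49.98, log2 fold change -0.05) just outside. Among long non-coding RNAs, the nuclear transcripts Malat1 and Neat1 gave 0.74 ± 0.10 and 0.57 ± 0.12 in the authors' deposited table.

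All 4 Egr factors, zinc finger proteins that bind GC-rich sites, were higher in the authors' deposited table, from Egr1 at 2.08 ± 0.23 and Egr2 at 2.18 ± 0.22 to Egr4 at 3.14 ± 0.13 and Egr3 at 3.81 ± 0.11. Their corepressors rose too, with Nab2 at 1.60 ± 0.09 and Nab1 at 0.79 ± 0.12 in the authors' deposited table. All 3 Nr4a orphan nuclear receptors were higher, with Nr4a2 estimated to go from 310.3 to 5254 normalized counts (3.81 ± 0.13 in the authors' deposited table). Srf, the serum response factor, gave 1.44 ± 0.09 in the authors' deposited table, in a list of CREB coactivators and related chromatin factors with 8 higher (4 with centring) and 1 lower of 19. Of 23 tested members of the list of immediate early transcription factors, 20 rose and 0 fell (median 2.17). The 3 that did not pass in the authors' deposited table were Klf6 (0.22 ± 0.10), Ier2 (0.43 ± 0.18) and Ier3 (0.48 ± 0.21). Kruppel-like factors were higher in 6 of 13 and lower in 0, led in the authors' deposited table by Klf9 (1.40 ± 0.09), Klf4 (0.94 ± 0.21) and Klf10 (0.78 ± 0.17). Of the 4 Id genes, inhibitors of bHLH factors, Id4 (0.68 ± 0.12) and Id2 (0.37 ± 0.11) rose in the authors' deposited table. The larger list of nuclear receptors and retinoic acid genes held 9 higher and 6 lower of 38 (23.7% and 15.8%, beside 18.6% and 12.6% of all genes). Its falls in the authors' deposited table included Nr2c1 (-0.67 ± 0.15), Aldh1a1 (-0.70 ± 0.13), an enzyme of retinoic acid synthesis, and Nr3c1 (-0.64 ± 0.11).

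Among clock genes, which form the daily transcription feedback loop, 12 of 21 rose and 0 fell (1 with centring). Per1 (2.16 ± 0.09) and Per2 (2.03 ± 0.12) led in the authors' deposited table, and Cry2 (0.90 ± 0.08), Cry1 (0.53 ± 0.13), Per3 (0.31 ± 0.11) and Ciart (1.02 ± 0.19) rose by less. Clock (0.22 ± 0.10) and the other 2 activator genes of the loop listed, Arntl (-0.17 ± 0.12) and Npas2 (0.19 ± 0.16), did not pass in the authors' deposited table. Whether these 3 differ from the Per and Cry genes was not tested. Genes known to respond to glucocorticoids, the adrenal stress hormones, were higher in 17 of 21 and lower in 2 (median 0.54). Besides Per1, the authors' deposited table listed Hif3a at 1.69 ± 0.22, the kinase gene Sgk1 at 1.54 ± 0.08, the kinase gene Map3k6 at 1.32 ± 0.22, the cochaperone gene Fkbp5 at 0.76 ± 0.10, Zbtb16 at 0.71 ± 0.10 and Tsc22d3 at 0.61 ± 0.09. The 2 lower members in the authors' deposited table were Nr3c1, the glucocorticoid receptor itself (-0.64 ± 0.11), and the lysozyme gene Lyz2 (-0.65 ± 0.26), which microglia and macrophages express. Some of these members, Per1, Sgk1 and Klf9 among them, are also known to follow neuronal activity.

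Promoters of the genes that rose at least 2-fold were searched for short binding motifs, because activity-regulated genes are known for CREB sites. RefSeq's table (GRCm38.p6) gave a promoter of 300 bases, 250 before and 50 after the start, for 137 of these 167 genes. The full CRE, TGACGTCA (a palindrome, so both strands are covered), stood in 13 of the 137 (9.49%), against 507 of the 27025 first-listed promoters of all genes in the table (1.88%) and 3.28% of the 9864 promoters found for tested genes. It stood in 0 of the 17 promoters found for the 20 immediate early transcription factors that rose. The AP-1 site TGAGTCA or TGACTCA stood in 2 of the 137 (1.46%) against 5.17% of all and 3.11% of tested promoters, and the E-box CACGTG in 19 (13.9%) against 7.24% and 10.4%. The D-box TTATGNAA stood in 7 (5.11%) against 3.52% of all and 1.86% of tested promoters. The EGR site GCGTGGGCG or GCGGGGGCG stood in 14 (10.2%) against 3.49% and 7.15%, and the serum response element in 4 (2.92%) against 1.57% and 1.31%. For the CRE, the AP-1 site, the EGR site and the E-box, tested genes thus lay nearer to the genes that rose than all promoters did. For the D-box and the serum response element, tested genes lay farther from them than all promoters did. These shares are descriptions of this window with no test, all on both strands; a promoter was found for 82.0% of the genes that rose at least 2-fold and for 79.5% of tested genes, so both are incomplete. Windows of 26 bases around the CRE of 6 genes are shown, with the motif in capitals, on the strand of the gene:
Arl4d: cgcgtcgtgTGACGTCAcgagagggt
Plk2: cgctcgccgTGACGTCAcgaggcccc
Pcsk1: aggtagatcTGACGTCAagagatggc
Scg2: ctgagccggTGACGTCAgcgtggaat
Dusp1: tagggcgggTGACGTCAccgcccggt
Btg2: tcccaataaTGACGTCAgtgagcgat
The windows lie at chr11:101665506-101665531 (+), chr13:110394973-110394998 (+), chr13:75089770-75089795 (+), chr1:79440078-79440103 (-), chr17:26508599-26508624 (-) and chr1:134079305-134079330 (-) in that order. The first base of the motif lies 26 bases before the listed start in Arl4d, 62 in Plk2, 78 in Pcsk1, 68 in Scg2, 143 in Dusp1 and 166 in Btg2. The products are of different kinds: Plk2 is a kinase that acts on spines (2.47 ± 0.08 in the authors' deposited table), Pcsk1 a prohormone convertase (1.07 ± 0.12), Scg2 a granin (1.18 ± 0.09), Dusp1 a phosphatase (1.49 ± 0.16) and Btg2 an antiproliferative regulator of mRNA decay (2.05 ± 0.12). Ciart, the clock repressor named above, had 3 E-boxes in its window.

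Brakes on MAP kinase signalling were higher in 16 of 22 and lower in 1. The authors' deposited table put the phosphatases Dusp4 at 2.56 ± 0.09, Dusp5 at 1.91 ± 0.16, Dusp16 at 1.20 ± 0.14 and Dusp6 at 1.04 ± 0.10, and the receptor tyrosine kinase inhibitor Errfi1 at 1.96 ± 0.09. The Sprouty genes parted: Spry2 gave 1.66 ± 0.09 and Spry4 0.33 ± 0.12, whereas Spry1 gave -0.73 ± 0.13 in the authors' deposited table. The kinases of the cascade had 9 higher and 4 lower of 36 (25% and 11.1%, beside 18.6% and 12.6% of all genes). Braf led them at 0.72 ± 0.12, with Mapk3 (ERK1) at 0.56 ± 0.10 and Mapkapk3 at -0.65 ± 0.21 in the authors' deposited table. Smad7, an inhibitor of TGF-beta receptors (2.09 ± 0.11), Skil (1.14 ± 0.09), Rgs2 (2.23 ± 0.10) and Rgs4 (1.54 ± 0.08), which shorten G-protein signals, rose in the authors' deposited table. Inhba, which encodes the activin A subunit, gave 2.04 ± 0.25 in the authors' deposited table. Over the TGF-beta, activin and BMP list the count was 10 higher and 4 lower of 38 (26.3% and 10.5%). For regulators of G-protein signalling it was 6 and 1 of 17 (35.3% and 5.88%).

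Of 33 Wnt pathway genes, 8 were higher and 7 lower (24.2% and 21.2%, beside 18.6% and 12.6% of all genes). The ligand gene Wnt9a fell furthest (-1.37 ± 0.21), followed by the receptor gene Fzd6 (-0.82 ± 0.17), Axin2, a target used as a readout of the pathway (-0.72 ± 0.12), and Fzd8 (-0.57 ± 0.16) in the authors' deposited table. Rspo3 (-0.49 ± 0.16) and Rspo2 (-0.43 ± 0.14), which encode R-spondins that amplify Wnt signals, fell as well in the authors' deposited table. The kinase gene Gsk3b (0.55 ± 0.12), the receptor genes Fzd2 (0.51 ± 0.21) and Fzd1 (0.48 ± 0.11) and Frzb (0.46 ± 0.10), a secreted inhibitor, rose in the authors' deposited table. Of growth factors and receptors, 12 of 45 rose and 7 fell (26.7% and 15.6%). Bdnf gave 2.30 ± 0.08 in the authors' deposited table, followed by Vegfa (0.70 ± 0.11), Nrg3 (0.59 ± 0.14) and Nrg2 (0.52 ± 0.16). The main VEGF receptor gene Kdr (-0.90 ± 0.16), the hepatocyte growth factor receptor gene Met (-0.78 ± 0.19) and the oncostatin receptor gene Osmr (-0.66 ± 0.14) fell in the authors' deposited table. In the PI3 kinase and mTOR list, 11 rose and 9 fell of 42; Rheb, the GTPase that activates mTOR, gave 1.14 ± 0.09 and the insulin receptor substrates went apart, Irs2 at 0.89 ± 0.09 and Irs1 at -0.46 ± 0.11, in the authors' deposited table. Numbl, an endocytic regulator of Notch, was higher at 1.37 ± 0.09 in the authors' deposited table. The Notch and Hedgehog list had 5 higher and 3 lower of 30 (16.7% and 10%, near the shares of all genes).

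Small GTPases of the Ras superfamily were higher in 17 of 35 and lower in 5. After Arl4d came Arl5b (2.05 ± 0.12), Rasl11a (1.59 ± 0.15), Rasd1 (1.19 ± 0.10), and Gem (0.95 ± 0.20), which holds down calcium channels, in the authors' deposited table. Rasl10a (-0.83 ± 0.11) and Rnd1 (-0.70 ± 0.19) fell in the authors' deposited table. Calcium and CaM kinase genes were higher in 28 of 51 and lower in 2. All 3 calmodulin genes were called, led by Calm3 (0.72 ± 0.10), as were the CaMKII subunits Camk2a (0.59 ± 0.08) and Camk2b (0.50 ± 0.08) and both CaMKII inhibitors, Camk2n1 (0.52 ± 0.10) and Camk2n2 (0.49 ± 0.10), in the authors' deposited table. With centring, 1 of the 3 calmodulin genes was still called. The calcium pump genes Atp2b4 (0.60 ± 0.09) and Atp2a2 (0.54 ± 0.08) rose in the authors' deposited table, and the exchanger gene Slc8a2 gave 0.65 ± 0.08. Nfatc3, a calcineurin-dependent factor, fell by 0.68 ± 0.15 in the authors' deposited table while Nfatc2 gave 0.43 ± 0.17. Protein kinase C, phospholipase C and diacylglycerol kinase genes were higher in 12 of 31, but in 4 with centring. The cyclic nucleotide list had 12 higher and 4 lower of 43, with the catalytic subunit gene Prkacb at 0.57 ± 0.10 and Pde1b, a phosphodiesterase, at -0.45 ± 0.09 in the authors' deposited table.

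Secreted peptides and the enzymes that process them were higher in 14 of 24 and lower in 0 (1 with centring), with a median of 0.36. The granin Scg2 gave 1.18 ± 0.09, Vgf 1.17 ± 0.10, Chgb 0.72 ± 0.10, and the convertase genes Pcsk1 1.07 ± 0.12 and Pcsk2 0.66 ± 0.10 in the authors' deposited table. Peptide genes of interneurons and granule cells gave smaller values in the authors' deposited table, Npy 0.55 ± 0.13, Sst 0.53 ± 0.11, Pdyn 0.51 ± 0.12 and Penk 0.46 ± 0.14. Tac1 (0.17 ± 0.22), Grp (0.05 ± 0.16) and Adcyap1 (0.37 ± 0.15) did not pass in the authors' deposited table. Receptors for peptides and monoamines had 7 higher and 5 lower of 37 (18.9% and 13.5%, near the shares of all genes). Adora1, the inhibitory adenosine receptor, gave 0.69 ± 0.10, Cnr1, the cannabinoid receptor of nerve endings, 0.55 ± 0.11, Npy5r -0.87 ± 0.19 and Cckbr -0.83 ± 0.17 in the authors' deposited table. Ptgs2, the inducible cyclooxygenase, gave 3.51 ± 0.10 in the authors' deposited table and was the only higher gene of 14 in the prostaglandin list, where 2 were lower.

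Ionotropic glutamate receptor genes and their partners were higher in 16 of 34 and lower in 1. Auxiliary subunits led in the authors' deposited table, Cacng2 (stargazin) at 0.80 ± 0.12, Neto1 at 0.66 ± 0.21, Shisa6 at 0.60 ± 0.12 and Cnih2 at 0.59 ± 0.09, ahead of the pore subunits Gria1 (0.54 ± 0.10), Grik4 (0.54 ± 0.11) and Grin2b (0.47 ± 0.10). Grin1 (0.13 ± 0.07) and Grin2a (0.22 ± 0.10) did not pass in the authors' deposited table. Of 6 metabotropic receptors, Grm4 (0.59 ± 0.19) and Grm5 (0.44 ± 0.11) were among those that rose in the authors' deposited table and Grm2, the presynaptic autoreceptor, fell by 1.02 ± 0.11, from an estimated 1317 to 629 normalized counts. GABA receptor genes gave 7 higher and 2 lower of 23. Kctd12, an auxiliary subunit of GABA-B receptors, rose by 0.92 ± 0.07 and Gabrd, the delta subunit of extrasynaptic receptors that granule cells are known for, fell by 0.63 ± 0.13 in the authors' deposited table. Nlgn2, the neuroligin of inhibitory synapses, gave 0.69 ± 0.09 in the authors' deposited table.

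Potassium channel genes were higher in 26 of 60 and lower in 4. After Kcnj2 the authors' deposited table had the silent subunits Kcnf1 (1.01 ± 0.08) and Kcng3 (0.91 ± 0.19), the inward rectifier Kcnj4 (0.84 ± 0.11) and the calcium-gated Kcnn2 (0.68 ± 0.12). Kcnj11, the pore of ATP-sensitive channels, fell by 0.75 ± 0.11 and the silent subunit Kcns1 at -0.66 ± 0.15 in the authors' deposited table. Sodium, calcium, HCN and chloride channel genes were higher in 22 of 42, or 13 with centring, and lower in 1. Sodium channel subunits led in the authors' deposited table, Scn4b at 0.85 ± 0.17, Scn2b at 0.57 ± 0.12 and Scn8a at 0.56 ± 0.10. The lower one was Clcn7, a lysosomal chloride exchanger, at -0.38 ± 0.08 in the authors' deposited table.

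Genes of the synapse itself were also called higher more often than lower, with a strong dependence on level. Presynaptic release genes were higher in 33 of 65 (lower in 1) at a median mean count of 2875, against 48.1% higher of all genes at 2500 or more, and with centring in 17 (lower in 8). Postsynaptic scaffold genes were higher in 28 of 55 and in 14 with centring. Those called with and without centring in the authors' deposited table include the vesicular glutamate transporter Slc17a7 (0.79 ± 0.10), the calcium sensor Syt1 (0.77 ± 0.20), the active zone proteins Pclo (0.69 ± 0.11) and Bsn (0.66 ± 0.09), and on the postsynaptic side Grasp (2.44 ± 0.09), Baiap2 (0.89 ± 0.10), Shank3 (0.55 ± 0.08) and Dlg4 (PSD-95, 0.50 ± 0.08). Rab3d (-0.75 ± 0.15), Magi1 (-0.36 ± 0.08) and Pick1 (-0.34 ± 0.10) fell in the authors' deposited table. Synaptic adhesion genes were higher in 32 of 56 and lower in 1. C1ql3, a secreted synaptic organizer of granule cells, gave 0.98 ± 0.09, Flrt3 0.93 ± 0.14, Lrrtm4 0.75 ± 0.10 and Cadm2 0.68 ± 0.11, and the latrophilin gene Lphn2 gave -0.63 ± 0.20, in the authors' deposited table. Protocadherins and cadherins had 7 higher and 0 lower of 35, with Cdh13 (0.59 ± 0.11) next after Pcdh8 in the authors' deposited table.

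Actin and intermediate filament genes were higher in 22 of 43 and lower in 3 (median 0.31). The Arp2/3 complex, which starts branched actin filaments, was higher in 7 of 10 subunits and lower in 0, with Arpc2 at 0.82 ± 0.08, Arpc5 at 0.77 ± 0.09 and Actr3 at 0.62 ± 0.08 in the authors' deposited table. Cytoplasmic actins rose with them in the authors' deposited table, Actg1 by 0.73 ± 0.06 and Actb by 0.67 ± 0.07, as did the adhesion protein gene Vcl by 0.81 ± 0.10 and filamin Flna by 0.70 ± 0.09. Neurofilaments gave 1.18 ± 0.10 for Nefm and 0.86 ± 0.07 for Nefl in the authors' deposited table. The lower members were Nes (-0.87 ± 0.14) and Vim (-0.59 ± 0.19), filaments of progenitors and reactive glia, and the nuclear lamin gene Lmnb1 (-0.45 ± 0.16, call lost with centring) in the authors' deposited table. Tubulin, microtubule and motor genes gave 13 higher and 4 lower of 50, with a median of 0.11 that turned to -0.06 with centring (6 higher and 12 lower). Stmn4, a neuronal stathmin that destabilizes microtubules, stood apart at 1.68 ± 0.08 in the authors' deposited table, while Stmn1 gave -0.43 ± 0.08. Axon growth and injury genes were higher in 13 of 21 (7 with centring) and lower in 2; Atf3, induced in injured neurons, gave 2.17 ± 0.22, and Gap43, a growth cone protein gene, 0.26 ± 0.10 (call lost with centring) in the authors' deposited table.

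Axon guidance genes were higher in 19 of 65 and lower in 5. Members of the Nogo receptor system led in the authors' deposited table, Lingo1 at 1.40 ± 0.11 and Rtn4rl2 at 0.98 ± 0.10, with the ephrin receptor genes Epha10 at 0.93 ± 0.11 and Epha3 at 0.54 ± 0.15. Sema3b (-0.88 ± 0.22) and Plxnd1 (-0.46 ± 0.15), the latter a semaphorin receptor of vessels and neurons, fell in the authors' deposited table. Matrix genes had 17 higher and 11 lower of 73 (23.3% and 15.1%, near the shares of all genes). The largest rises were those of the collagen genes Col25a1 (0.66 ± 0.11) and Col12a1 (0.65 ± 0.17), the protease inhibitor gene Timp4 (0.65 ± 0.13), the link protein gene Hapln4 (0.60 ± 0.11) and the proteoglycan gene Bcan (0.59 ± 0.09) in the authors' deposited table. Lower members include proteases and glycoproteins, Plau (urokinase, -1.40 ± 0.22), Thbs2 (-0.95 ± 0.16), Mmp2 (-0.75 ± 0.20) and Adam17 (-0.51 ± 0.14), in the authors' deposited table.

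Markers of cell types were read with the caution that in bulk tissue fewer cells of a type and less RNA per cell cannot be told apart. A mean of 50 or more cannot check the tissue label, since all 21 general astrocyte markers reached it. All 18 granule neuron markers did too, with Prox1, the granule cell identity factor, at a mean count of 1762 in the authors' deposited table. Their summed level was estimated at 34282 normalized counts at E0 and 45674 at E1, and 11 of 18 were higher (6 with centring) and 0 lower. C1ql3 and Lrrc10b (0.83 ± 0.11) led in the authors' deposited table, with the calcium buffer gene Calb1 at 0.57 ± 0.09. Interneuron markers were higher in 14 of 23 and lower in 0, at a low median mean count of 316. The GABA-synthesizing enzyme genes Gad2 (0.65 ± 0.12) and Gad1 (0.52 ± 0.08), and Reln (0.47 ± 0.09) rose in the authors' deposited table. Pvalb (0.30 ± 0.16) and Slc32a1, the vesicular GABA transporter (0.13 ± 0.08), did not pass in the authors' deposited table. Immature neuron markers were higher in 11 of 18 and lower in 2, with Sox11 at 1.19 ± 0.11 and Neurod1 at 0.64 ± 0.14 in the authors' deposited table. Stmn1, the most abundant of them, had the lowest value, -0.43, and the standard marker Dcx (0.19 ± 0.14) did not pass in the authors' deposited table. Progenitor markers gave 3 higher and 5 lower of 16, with Id4 the highest at 0.68 in the authors' deposited table. Besides Nes and Vim, Sox9 (-0.54 ± 0.11) and Sox2 (-0.35 ± 0.10) fell in the authors' deposited table. Pyramidal neuron markers were higher in 7 and lower in 3 of 20, and mossy cell markers higher in 4 and lower in 0 of 10. The summed level at E1, as a percentage of that at E0, was 133% for granule, 139.8% for interneuron, 122% for immature neuron, 99.2% for progenitor, 123% for pyramidal and 121% for mossy cell markers. Such sums were not centred and weigh the most abundant members most, as Gria1, an AMPA receptor subunit (mean 13908), among granule markers. The most abundant were Slc1a3 (mean 10045) among progenitor and Stmn1 (mean 3657) among immature neuron markers.

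Of 21 general astrocyte markers, 14 were higher and 1 lower, with the glutamate transporter gene Slc1a2 at 0.64 ± 0.09, the connexin gene Gja1 at 0.57 ± 0.08 and Fam107a at 0.77 ± 0.09 in the authors' deposited table. Of 25 markers of reactive astrocytes, 2 were higher and 14 lower (median -0.47). Gfap, the main astrocyte filament, gave -0.57 ± 0.11 in the authors' deposited table, from an estimated 22531 to 14866 normalized counts. The complement gene C4b and the receptor gene Osmr are typical of the reactive state: Steap4 (-0.87 ± 0.26), Osmr (-0.66 ± 0.14), C4b (-0.63 ± 0.21) and Cd44 (-0.47 ± 0.12) fell in the authors' deposited table. Microglia and macrophage markers were lower in 16 of 32 and higher in 1, and their summed level was estimated at 35382 at E0 and 26005 at E1. Those that fell in the authors' deposited table include the C1q genes (C1qb at -0.55 ± 0.14), the lysosomal protein gene Cd68 (-0.61 ± 0.17), Mpeg1 (-0.77 ± 0.21) and Tyrobp (-0.52 ± 0.17). P2ry12, a purine receptor of microglia, was the higher member (0.32 ± 0.13), and the receptor genes Csf1r (-0.01 ± 0.09) and Cx3cr1 (-0.02 ± 0.09) did not pass, in the authors' deposited table. Csf1, the growth factor for microglia, fell by 0.94 ± 0.12 in the authors' deposited table.

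Oligodendrocyte markers were lower in 7 of 22 and higher in 0, with Olig2 (-0.81 ± 0.14), Gjb1 (-0.69 ± 0.21) and the transferrin gene Trf (-0.60 ± 0.12) in the authors' deposited table, while the myelin gene Mbp (-0.10 ± 0.20) did not pass. Endothelial markers gave 3 higher and 3 lower of 22. The blood-brain barrier transporters for glucose, Slc2a1 (1.12 ± 0.12), and for an omega-3 lipid, Mfsd2a (1.10 ± 0.14), rose, and Sox18 (-0.94 ± 0.22) and Kdr fell, in the authors' deposited table. Pericyte, smooth muscle and fibroblast markers had 1 higher and 1 lower of 22. Oligodendrocyte precursor markers had 0 higher and 3 lower of 14, and only 4 of 20 choroid plexus and ependymal markers had a mean of 50 or more. Summed levels at E1 were 130.2% of those at E0 for general astrocyte, 66.8% for reactive astrocyte, 73.5% for microglia, 88.3% for oligodendrocyte and 112% for endothelial markers. These sums too were not centred and weigh abundant members most. The most abundant were Gfap (mean 18698) among reactive astrocyte, Ctsd (8673) among microglial and Bsg (5952) among endothelial markers. None of the 18 blood cell markers reached a mean of 50, the highest being Alas2 at a mean of 21.9, and 5 were at 0 in the authors' deposited table.

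**Figure D4:**
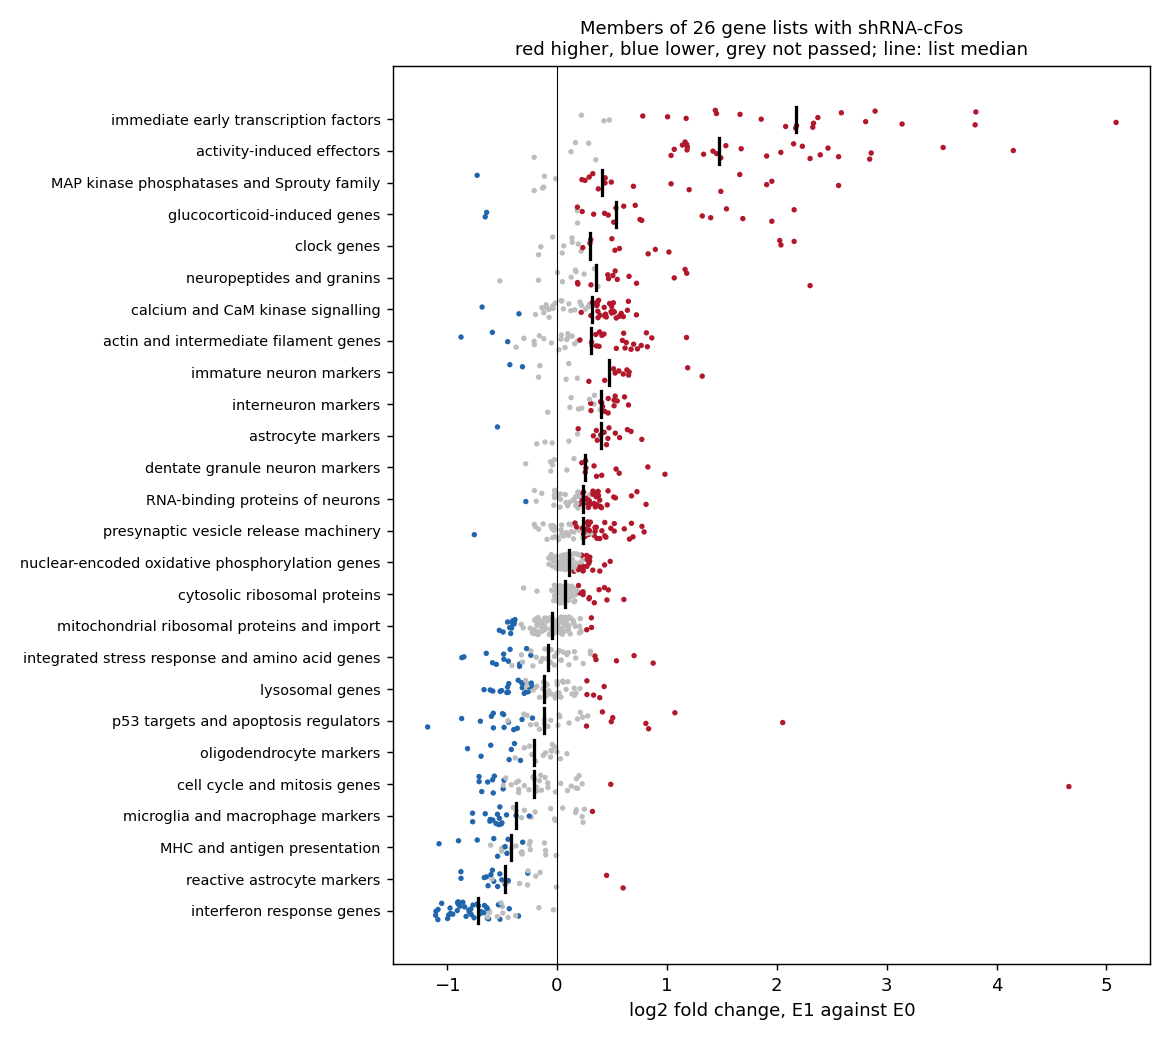
Log2 fold change of E1 against E0 with shRNA-cFos for the tested members of 26 gene lists, 1 point per gene, red where higher, blue where lower and grey where the adjusted p did not pass; the black line is the list's median. Medians run from 2.17 for immediate early transcription factors to -0.72 for interferon response genes, and mitochondrial ribosomal, stress response and lysosomal lists have medians of -0.05, -0.08 and -0.12.

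Interferon response genes, the antiviral program that type I interferons switch on through STAT proteins and IRF9, had the highest share of lower members among the 87 lists with tested genes. Of 50 tested members 39 were lower and 0 higher, beside 12.6% lower of all genes. Its signalling factors were among those that fell in the authors' deposited table, with Irf9 at -1.10 ± 0.16, Irf8 at -0.87 ± 0.18, Irf1 at -0.80 ± 0.15, Irf7 at -0.69 ± 0.25 and Stat2 at -0.53 ± 0.12, and the call for Irf7 was lost with centring. The 5 sensors of viral nucleic acid fell too, from Dhx58 (-0.99 ± 0.23) and Zbp1 (-0.90 ± 0.24) to Ddx58 (RIG-I, -0.62 ± 0.16) in the authors' deposited table. Effectors gave -1.08 ± 0.23 for Oas1a, -1.08 ± 0.18 for Bst2 (tetherin), -0.97 ± 0.15 for Ifit3 and -0.95 ± 0.20 for Ifit1 in the authors' deposited table. The ubiquitin-like modifier gene Isg15 (-0.91 ± 0.22), its conjugating enzyme gene Ube2l6 (-0.87 ± 0.16), its ligase gene Herc6 (-0.71 ± 0.16) and its protease gene Usp18 (-0.90 ± 0.22) all fell in the authors' deposited table. These genes are of low to middle abundance, with a median mean count of 243 over the list; Bst2, for example, went from an estimated 416 to 175 normalized counts. In the mouse annotation Irf9 shares bases on the same strand with Rnf31, which gave -0.41 ± 0.11 in the authors' deposited table.

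The element through which this program is read, the ISRE, was looked for on both strands as GAAA, any 2 bases and GAAA again. It stood in 3.49% of all 27025 promoters, 2.90% of those found for tested genes and 5.11% of those of genes that rose at least 2-fold. Among the 39 lower interferon genes 30 had a promoter in the table, and 12 of these had a match while the rest had none. The set is incomplete and was not tested, so matches are shown as examples only, with the motif in capitals and on the strand of the gene:
Ifit1: cagtctcagTTTCAGTTTCtcactgctg
Ifit3: ttaagtctgTTTCAGTTTCtactttcct
Igtp: ctaggaactGAAACTGAAAgctgttcgg
Isg15: taggaaaagGAAACCGAAAcagaaaata
Bst2: caggaaaatGAAACTGAAAggctgcagt
In that order the windows lie at chr19:34640795-34640822 (+), chr19:34583398-34583425 (+), chr11:58199513-58199540 (+), chr4:156200872-156200899 (-) and chr8:71537578-71537605 (-). The motif starts 85 bases before the listed start in Ifit1, 122 in Ifit3, 34 in Igtp, 72 in Isg15 and 124 in Bst2. Isg15 has 3 overlapping matches in its window. The Ifit1 and Ifit3 windows hold the motif as its reverse complement, and a match in sequence does not show that the site is used.

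Antigen presentation followed the same direction, with 9 of 25 lower and 0 higher. This list and the interferon list share members, Tap1 among them, so their counts are not independent. Nlrc5, the activator of MHC class I genes, gave -1.07 ± 0.21, the peptide transporter genes Tap1 -0.90 ± 0.17 and Tap2 -0.72 ± 0.14, and the light chain gene B2m -0.54 ± 0.20 in the authors' deposited table. H2-K1 (-0.42 ± 0.25) and the class II chain gene Cd74 (-0.32 ± 0.24) did not pass in the authors' deposited table. NF-kappaB and Toll-like receptor genes were lower in 13 of 50 (8 with centring) and higher in 6. Among those that fell in the authors' deposited table were the adhesion molecules Icam1 (-0.95 ± 0.19) and Vcam1 (-0.70 ± 0.12) and the adaptor gene Myd88 (-0.61 ± 0.18), while the inhibitor genes Nfkbiz (0.69 ± 0.16) and Nfkbia (0.43 ± 0.14) rose. Complement genes were lower in 5 and higher in 2 of 15, and chemokine and cytokine genes lower in 5 and higher in 4 of 33, where Cx3cl1, the neuronal ligand of the microglial receptor Cx3cr1, gave 0.70 ± 0.08 in the authors' deposited table. Cybb, the phagocyte NADPH oxidase gene, and Cd180, a B cell and myeloid receptor, were among the 20 largest falls, at -1.22 ± 0.21 and -1.15 ± 0.21 in the authors' deposited table. Cd180 lies within the span of Mast4, which is transcribed from the opposite strand and gave 0.71 ± 0.24 in the authors' deposited table. The microglial markers above moved the same way as the interferon, antigen presentation and complement genes, and their part in those results was not tested.

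Genes of cell death and of the p53 response were lower in 14 of 41 and higher in 8. Bbc3 (Puma), a killer protein of the Bcl-2 family, went from an estimated 248 to 101 normalized counts (-1.18 ± 0.16 in the authors' deposited table). Bak1 (-0.58 ± 0.15), Bax (-0.48 ± 0.11) and Trp53 itself (-0.49 ± 0.12) fell, and Btg2, Apaf1 (0.83 ± 0.11), Bok (0.81 ± 0.10) and the survival gene Mcl1 (0.51 ± 0.08) rose, in the authors' deposited table. The Gadd45 genes, which link stress to DNA repair and demethylation, divided: Gadd45b (2.40 ± 0.12) and Gadd45g (1.33 ± 0.11) rose and Gadd45a (-0.87 ± 0.21) fell in the authors' deposited table. The Tet enzymes, which oxidize methylcytosine, divided likewise in the authors' deposited table, with Tet2 at 0.77 ± 0.10 and Tet3 at 0.34 ± 0.11 higher and Tet1 at -0.72 ± 0.16 lower. Over the list of DNA methylation genes 7 were higher and 9 lower of 22.

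Integrated stress response and amino acid genes, some of them targets of ATF4, were lower in 13 of 46 and higher in 5. Mthfd2 (-0.86 ± 0.16) and Shmt2 (-0.64 ± 0.12), enzymes of mitochondrial one-carbon metabolism, Nupr1 (-0.85 ± 0.21), Ddit3 (CHOP, -0.44 ± 0.13) and the tRNA synthetase gene Iars (-0.48 ± 0.09) fell in the authors' deposited table. The phosphatase subunit genes Ppp1r15b (0.70 ± 0.09) and Ppp1r15a (0.35 ± 0.12), which end the response, rose in the authors' deposited table. Of 5 tested eIF2B subunit genes, 3 fell in the authors' deposited table, Eif2b4 at -0.43 ± 0.10, Eif2b2 at -0.42 ± 0.12 and Eif2b1 at -0.39 ± 0.12, and Eif2b5 rose by 0.35 ± 0.11. Heat shock chaperones gave 9 higher and 9 lower of 43. Dnajb5 (2.29 ± 0.07) and Hspa14 (1.35 ± 0.09) stood far above the rest in the authors' deposited table, and the mitochondrial pair Hspe1 (-0.49 ± 0.09) and Hspd1 (-0.21 ± 0.07) fell. In the endoplasmic reticulum list, 7 rose and 6 fell of 41 (11 lower with centring), with Hspa5 (BiP) at 0.75 ± 0.07 and Derl2 at -0.54 ± 0.12 in the authors' deposited table. Antioxidant genes were also divided, 13 higher and 8 lower of 43; Hmox1 fell by 0.94 ± 0.14 and the factor gene Nfe2l2 at -0.59 ± 0.12, and the ferritin gene Fth1 rose by 0.75 ± 0.09, in the authors' deposited table.

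Lysosomal genes were lower in 20 of 63 and higher in 5, at a median mean count of 1277, where all genes are more often higher than lower. With centring 25 were lower and 2 higher. Of 10 tested cathepsin genes, the lysosome's proteases, 7 were lower and 0 higher, and all 10 had a fold change below 0. Ctsz gave -0.66 ± 0.21, Ctss -0.61 ± 0.13, Ctsd -0.58 ± 0.12 and Ctsb -0.26 ± 0.10 in the authors' deposited table. Enzyme and membrane protein genes fell as well in the authors' deposited table, Hexa at -0.45 ± 0.12, Cln3 at -0.46 ± 0.14, Grn (progranulin) at -0.31 ± 0.10 and Lamp1 at -0.24 ± 0.08. Some of these genes, Ctss, Ctsz and Ctsd among them, are strongly expressed by microglia, and Ctss and Ctsd are also in the microglia list. Vacuolar ATPase subunits, which acidify lysosomes and synaptic vesicles, were higher in 2 and lower in 2 of 17, or 0 and 6 with centring. Autophagy genes gave 7 higher and 3 lower of 37, or 8 and 10 with centring, with Gabarapl1 at 0.57 ± 0.09 and Atg14 at -0.45 ± 0.12 in the authors' deposited table.

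Glycolytic and lactate genes were higher in 15 of 42 and lower in 1. Slc2a1, the glucose transporter of endothelium and glia (1.12 ± 0.12), Slc2a3, that of neurons (0.53 ± 0.08), Aldoa (0.66 ± 0.09), Ldha (0.51 ± 0.08), the lactate transporter gene Slc16a1 (0.64 ± 0.10) and Pdk3, which shuts pyruvate out of the citric acid cycle (1.01 ± 0.12), rose in the authors' deposited table. Oxidative phosphorylation genes were higher in 20 of 76 and lower in 0, but in 7 and 2 with centring, and the largest in the authors' deposited table was Ndufb10 at 0.49 ± 0.10. Citric acid cycle genes had a median of 0.10, or -0.00494 with centring, and 9 of 31 higher (4 with centring). Among sterol synthesis genes Idi1 (0.73 ± 0.14) and Mvk (0.69 ± 0.15) rose, while Dhcr7 (-0.59 ± 0.14) and the exporter gene Abca1 (-0.79 ± 0.13) fell, in the authors' deposited table; the list had 9 higher and 6 lower of 32. Fatty acid genes gave 13 higher and 6 lower of 55, among them Acsl4 (0.86 ± 0.13) and Fads1 (0.74 ± 0.08) higher and the lipid droplet gene Plin2 (-0.79 ± 0.19) lower in the authors' deposited table. Hypoxia and angiogenesis genes, some shared with the lists above, gave 9 higher and 2 lower of 27.

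Cytosolic ribosomal protein genes were higher in 12 of 77 (15.6%, below the 18.6% of all genes and the 29.9% of genes with a mean between 1000 and 2500) and lower in 0 (7 and 1 with centring), led by Rpl22l1 (0.61 ± 0.11) and Rps2 (0.47 ± 0.08) in the authors' deposited table. Mitochondrial ribosomal and import genes were higher in 3 and lower in 11 of 95, with Mrpl34 at -0.52 ± 0.13 and Mrpl22 at -0.49 ± 0.15 in the authors' deposited table, at a median mean count of 379 where all genes lean lower. Translation factors gave 15 higher and 5 lower of 55, or 8 and 14 with centring. Eif5a2 (0.79 ± 0.15), the helicase gene Eif4a1 (0.72 ± 0.07) and the release factor gene Etf1 (0.71 ± 0.08) rose in the authors' deposited table. Ribosome biogenesis genes gave 8 higher and 4 lower of 71, with Nhp2l1 at 1.02 ± 0.09 and Myc at 0.68 ± 0.16 in the authors' deposited table. Proteasome subunits gave 6 and 2 of 38. Ubiquitin ligases and deubiquitinases were higher in 29 of 90 (19 with centring) and lower in 4. Rnf217 (1.99 ± 0.11), Fbxo33 (1.89 ± 0.10) and Fbxw7 (0.86 ± 0.10) led the rises in the authors' deposited table, and Fbxo32 (atrogin-1), a ligase of muscle atrophy known as a FOXO target, fell by 1.38 ± 0.15.

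Of 66 histone acetylation and methylation enzymes, 11 were higher and 4 lower (7 and 8 with centring). Demethylases led in the authors' deposited table, Kdm6b, which removes the H3K27 mark, at 1.91 ± 0.09 and Jmjd1c at 1.15 ± 0.09, ahead of the methyltransferase gene Dot1l at 0.61 ± 0.08. Chd remodellers were higher in 5 of 9 and lower in 0, with Chd2 at 0.66 ± 0.08 and Chd1 at 0.55 ± 0.10 in the authors' deposited table. Subunits of cohesin, condensin and the SMC5-SMC6 complex were lower in 5 of 9 (3 with centring) and higher in 0, with Smc3 at -0.36 ± 0.10 in the authors' deposited table. The remodelling list as a whole held 11 higher and 12 lower of 62. Canonical and linker histones gave 2 and 2 of 24, the replacement histone gene H3f3b giving 0.78 ± 0.07 in the authors' deposited table. Of RNA polymerase II and Mediator genes 15 rose and 8 fell of 68; Ccnl1 gave 0.90 ± 0.09, Med26 0.74 ± 0.14 and Med18 -1.03 ± 0.22 in the authors' deposited table.

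Splicing factors were higher in 15 of 62 and lower in 2, or 9 and 8 with centring, led in the authors' deposited table by Prpf38b (0.82 ± 0.10), Sf3b1 (0.65 ± 0.07) and Srsf7 (0.52 ± 0.08). RNA-binding proteins of neurons were higher in 35 of 64 and lower in 1, and in 18 and 4 with centring. Cpeb4 (0.81 ± 0.09), which controls poly(A) tails of localized mRNAs, the cold-inducible gene Rbm3 (0.73 ± 0.13) and Mbnl1 (0.68 ± 0.11) were the leading members in the authors' deposited table. Cell cycle genes were lower in 9 of 40 and higher in 2. Of the 6 replicative helicase genes, 4 fell in the authors' deposited table, Mcm3 at -0.71 ± 0.19, Mcm2 at -0.63 ± 0.19, Mcm7 at -0.58 ± 0.14 and Mcm6 at -0.48 ± 0.12, as did Top2a at -0.71 ± 0.21 and Ccnd1 at -0.68 ± 0.11. Cenpa was thus an exception among genes of dividing cells, with E2f3 (0.49 ± 0.12 in the authors' deposited table) the other higher member.

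Neuronal identity factors, which hold cell types in place, were higher in 16 and lower in 8 of 48, with Zbtb20, a hippocampal factor, at 0.70 ± 0.12, Neurod6 at 0.52 ± 0.21 and Neurod2 at 0.52 ± 0.08 higher and Meis2 at -0.52 ± 0.19, Emx1 at -0.41 ± 0.17 and Bcl11b at -0.26 ± 0.09 lower in the authors' deposited table; the calls for Neurod6, Meis2 and Emx1 were lost with centring. Transporters and enzymes of glutamate and GABA were higher in 12 and lower in 2 of 26. Abat, which breaks GABA down, gave 0.51 ± 0.08 and Slc38a3, a glial glutamine transporter, gave -0.47 ± 0.12 in the authors' deposited table.

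Grouping genes by the letters that open their symbols, with no regard to function, gave 53 families of 20 or more tested genes and 2545 genes in all. The largest, the Zfp zinc finger genes, had 25 higher and 69 lower of 293 (23.5% lower, median -0.20), and 43 lower with centring. Zfp282 (-0.95 ± 0.14) and Zfp82 (-0.89 ± 0.22) were among those that fell in the authors' deposited table, against Zfp948 (1.84 ± 0.14) and Zfp189 (1.60 ± 0.11) that rose. The Trim genes, ubiquitin ligases of which many respond to interferon, had 14 lower of 35 (12 with centring) and 2 higher, led in the authors' deposited table by Trim34a (-1.15 ± 0.20) and Trim30a (-1.05 ± 0.17). Protein phosphatase genes (Ppp) lay at the other end, with 27 higher of 64 (12 with centring) and 3 lower, among them the glycogen-targeting subunit genes Ppp1r3g (1.10 ± 0.18) and Ppp1r3c (0.67 ± 0.11) in the authors' deposited table. Deubiquitinases (Usp) were higher in 16 of 45 (15 with centring), with Usp36 at 1.15 ± 0.09 in the authors' deposited table, and ubiquitin-conjugating enzymes (Ube) in 11 of 35 (7 with centring), with Ube2h at 0.97 ± 0.09. Atp genes, mostly ion pumps and ATP synthase, were higher in 20 of 64 and lower in 2, or 9 and 8 with centring. Solute carriers (Slc) were higher in 44 and lower in 21 of 226, close to the shares of all genes. The thyroid hormone and amino acid transporter gene Slc16a10 (1.44 ± 0.15) and the mitochondrial carrier gene Slc25a25 (0.98 ± 0.08) rose, and the iron exporter gene Slc40a1 (-0.83 ± 0.18) fell, in the authors' deposited table. Orphan G-protein coupled receptors (Gpr) had 10 higher and 6 lower of 45, led in the authors' deposited table by Gpr3, which raises cAMP without a ligand (1.45 ± 0.19), and Gpr22 (1.24 ± 0.12).

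**Figure D5:**
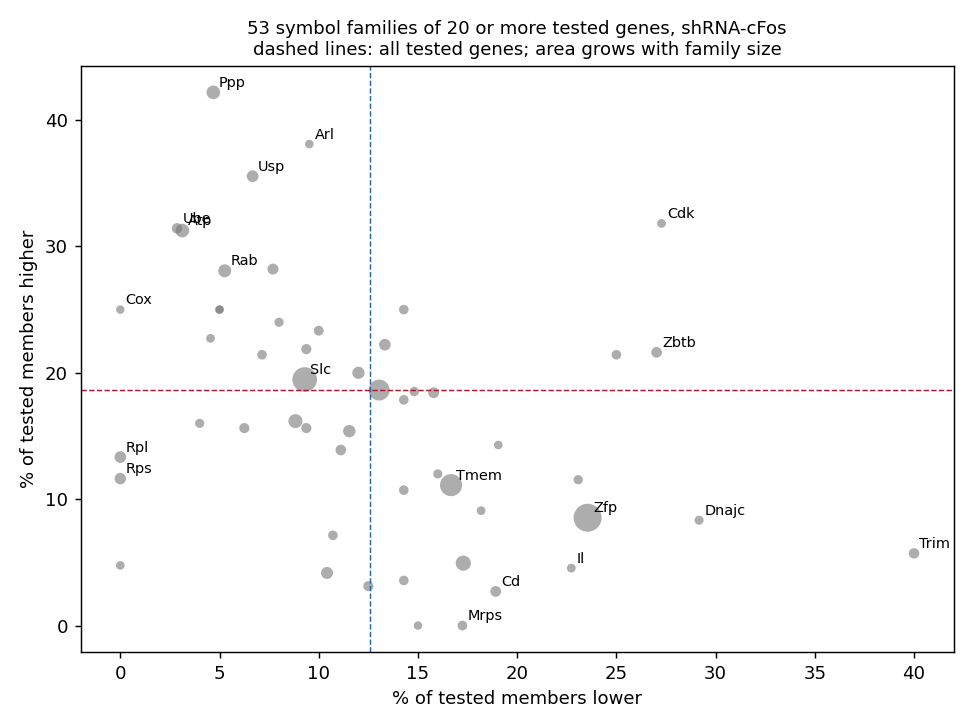
Percentage of tested members called higher (vertical axis) against the percentage called lower (horizontal axis) for 53 symbol families of 20 or more tested genes, 1 circle per family with its area growing with family size; dashed lines mark the shares of all tested genes, 18.6% higher and 12.6% lower. Ppp, Usp, Ube and Atp genes lie at the upper left and Trim and Zfp genes at the lower right.

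The largest falls also include genes outside these lists. Dclk3, a kinase of the doublecortin family, fell furthest, from an estimated 445 to 104 normalized counts (-1.88 ± 0.16 in the authors' deposited table). Klk6, a protease of oligodendrocytes, gave -1.31 ± 0.22, the protease inhibitor gene Spint1 -1.13 ± 0.21 and the erythropoietin receptor gene Epor -1.08 ± 0.20 in the authors' deposited table. Of the 20 largest falls, 6 are in the interferon or antigen presentation lists, namely Ifi44, Irf9, Bst2, Oas1a, Trim30a and Nlrc5.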

How the data were processed

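Dentate gyrus RNA was sequenced in 3 shRNA-cFos libraries at E0 and 3 at E1. TopHat2, DESeq2 and build mm9 are named in the submitters' processing notes, without versions, whereas the read counter, annotation and strand setting were not stated. The authors deposited 1 table for the comparison, which per the file headers holds for each gene a mean normalized count (a signal made by dividing counts by size factors and averaging), a log2 fold change with its standard error, a Wald statistic (a score) and a p-value with its adjusted value. The authors' log2 fold changes are shrunken toward 0, as their values show, most of all where the standard error is wide. That holds for many low-count genes and also for some abundant ones, such as Arc and Nr4a1. The table has 0 columns of values per library, so depth per library is unknown and no count test was run here, unlike the test planned for count files.

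Genes with a mean of 50 or more were kept and called at the authors' adjusted p under 0.05 (2-sided). Levels at E0 and E1 were computed from the mean count and the fold change with the shrinkage removed. Centring subtracted the median fold change in each of 20 classes of mean count, kept the authors' standard error and adjusted normal p-values by Benjamini-Hochberg. This alternative was chosen after seeing the data; the others were a stricter adjusted p, a minimum fold change, other mean count minimums, adjustment over the kept genes alone and a shift to a median of 0.

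The genes and the 88 lists were chosen with earlier results of these data known. The rule named the 20 largest changes in each direction, Fos, up to 5 called members in each direction and the 3 most abundant members of a list, and up to 3 in each direction of a symbol family. Other named members, and role groups within lists such as the Arp2/3 complex or the cathepsins, were chosen after their values were seen. Sequences and promoters came from RefSeq (GRCm38.p6), matched by symbol, and overlaps and spans from GENCODE M21. Scripts used Python 3.11.15, numpy 2.4.6, pandas 2.3.3, scipy 1.17.1 and matplotlib 3.10.9, and were tested on simulated data.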

Additional observations from a re-analysis of the deposited data

How the results depend on the processing

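No paired analysis was possible because the deposited table holds no values per library, although the labels number the libraries 1 to 3 in both groups; for the same reason leaving out each library could not be run, and p-values rest on the authors' model of the spread between 3 libraries a group. A minimum fold change of 1.5 left 548 higher and 372 lower genes, and an adjusted p under 0.01 left 1677 higher and 873 lower; both alternatives only remove calls. The other alternatives (no minimum mean count, a mean of 200 or more, adjustment over the kept genes alone, a shift of all fold changes to a median of 0, and centring within classes of mean count, which was chosen after seeing the data) kept both counts within 1.5 times, from 1888 to 2370 higher and from 1093 to 1757 lower. With centring, 12 of 86 list medians changed sign. They include tubulin, microtubule and motor genes (0.11 to -0.0646), heat shock chaperones (0.03 to -0.11), cytosolic ribosomal proteins (0.07 to -0.04) and citric acid cycle genes (0.10 to -0.00494). The others were Notch and Hedgehog, PI3 kinase, translation factor, proteasome, autophagy, histone enzyme, DNA methylation and chromatin remodelling genes. Each list's yardstick, called its spread, was the median standard error of its single genes, not the error of the list median. Besides the tubulin and citric acid cycle lists, 13 medians moved beyond this spread, heat shock and cytosolic ribosomal genes among them. With centring 47 of 172 list counts moved by more than 1.5 times, against 4 of 172 with the shift. The cause was not tested. Of 86 list medians, 83 moved by less than their spread with the shrinkage removed and 86 with the shift. The authors' standard errors were widest for low genes (median 0.205 at a mean between 50 and 100, against 0.0782 at 2500 or more), so a gene that did not pass there was not shown to be unchanged.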
